A study of Homo sapiens with 4 samples.

Results

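The BMP pathway genes described here are 10 listed symbols, found in full among the 33640 genes of the files. They comprise 3 ligands (BMP2, BMP4 and BMP7), 2 receptors (BMPR1A and BMPR2), the signal transducer SMAD1 and 4 target genes (ID1, ID2, ID3 and ID4). The rule lists symbols and uses no measured value, but the symbols were chosen with earlier results of these data known. They were measured in 4 RNA libraries of H9 cells, a line of primed human pluripotent stem cells, made while a method for profiling histone modifications and the transcriptome of the same nuclei was being optimised. In the Pre libraries reverse transcription (RT) came before tagmentation by Tn5, and in the Post libraries it came after. Either order was run on material labelled RNA_only, named RNA only below, and on material labelled H3K27me3_H3K27ac, named RNA+DNA below, in which those 2 histone marks were profiled too. The labels do not say whether the RNA_only material was tagmented as well.

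Each of the 4 conditions was 1 library, so no difference has a replicate check and no p-value is attached to the comparisons of pairs below. The only p-values, given at the end, come from an additive model over the 4 libraries. All 4 libraries came from H9 nuclei of cells grown in Essential 8 medium on Geltrex at reduced oxygen, fixed lightly with formaldehyde and primed with poly-T, with no genetic change and no added BMP ligand or inhibitor named in the labels. Whether the 4 libraries came from separate cultures is not given in the sources used here. Each library is a pool of nuclei, so fewer cells that use a gene and less RNA per cell cannot be told apart.

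Bone morphogenetic proteins (BMPs) are secreted ligands that bring type I and type II receptor kinases together at the cell surface. The type I receptor phosphorylates SMAD1 and its relatives SMAD5 and SMAD9, which enter the nucleus with SMAD4 and turn on target genes. The ID genes are the best known of these targets in many cell types, and their proteins bind E proteins, which are helix-loop-helix transcription factors, and keep them from DNA. In human pluripotent cells added BMP drives differentiation toward amnion-like and trophoblast-like fates, so pluripotent cultures are usually kept under low BMP signalling.

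Total counts came to 9379073 in the Pre RNA only library, 8960724 for Pre RNA+DNA and 6368721 for Post RNA only, while Post RNA+DNA had 10089552. The label of the cells matched their markers. All 10 genes of the pluripotency list passed a mean of 10 RPM, the counts of a gene per 1000000 counts of its library, and their summed level was 1980 to 2810 RPM. None of the 7 amnion and trophoblast genes found in the files did, with summed levels of 5.12 to 8.42 RPM, and none of the 6 mesendoderm and endoderm genes, with 4.08 to 6.58 RPM. In the neural list, 2 of 4 genes passed, with a summed level of 182 to 225 RPM, most of it from NES, which pluripotent cells also express. In the fibroblast list COL1A2 alone of 5 genes passed, and the summed level was 28.3 to 40.8 RPM. The Post RNA only library stood apart from the other 3. Across the 11564 genes whose mean reached 10 RPM, the median log2 ratio was -0.44 for Post over Pre with RNA only and 0.38 for RNA+DNA over RNA only in the Post libraries, the 2 comparisons that use it. It was -0.09 and 0.03 in the 2 comparisons that do not. Differences are therefore given relative to that median, and each relative fold below is the ratio of RPM divided by the median ratio of all these genes.

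The genes differ widely in structure, and the regions before the starts of 4 members are shown as a description. They were chosen after it was seen that ID3 and the receptors lay on opposite sides of the all-gene median in Post over Pre with RNA only. Whether these regions have a part in any difference between the libraries was not tested. The ID genes are compact. ID1 spans 1.23 kb (chromosome 20, 31605283 to 31606515, plus strand), ID3 spans 1.58 kb (chromosome 1, 23557926 to 23559501, minus strand), ID4 spans 4.83 kb on chromosome 6 and ID2 spans 5.62 kb on chromosome 2. The receptors are long. BMPR1A covers 176 kb (chromosome 10, 86756596 to 86932825, plus strand) and BMPR2 covers 191 kb (chromosome 2, 202376327 to 202567751, plus strand), each with 12 introns in its canonical transcript. SMAD1 spans 78 kb on chromosome 4 with 6 introns, and BMP7 spans 97.9 kb on chromosome 20. BMP2 and BMP4 span 12.6 and 9.03 kb. Places are those of GENCODE release 44 on GRCh38, the build that the submitters' notes name. Each sequence below runs 5′ to 3′ on the strand of its gene over the 250 bases before a RefSeq start (GRCh38.p14), and capitals mark matches to the motifs named after them.

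ID1, chr20:31605039-31605288, plus strand: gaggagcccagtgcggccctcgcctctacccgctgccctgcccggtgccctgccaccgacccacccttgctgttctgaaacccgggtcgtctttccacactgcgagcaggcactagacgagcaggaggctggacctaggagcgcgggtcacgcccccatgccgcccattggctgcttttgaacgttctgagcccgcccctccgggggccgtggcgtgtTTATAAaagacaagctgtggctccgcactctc
ID3, chr1:23559502-23559751, minus strand: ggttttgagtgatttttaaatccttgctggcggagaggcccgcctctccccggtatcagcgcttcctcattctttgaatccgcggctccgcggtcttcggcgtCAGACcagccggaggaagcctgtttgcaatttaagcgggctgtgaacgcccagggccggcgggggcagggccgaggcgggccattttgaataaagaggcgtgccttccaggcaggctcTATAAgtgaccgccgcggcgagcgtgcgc
BMPR1A, chr10:86755513-86755762, plus strand: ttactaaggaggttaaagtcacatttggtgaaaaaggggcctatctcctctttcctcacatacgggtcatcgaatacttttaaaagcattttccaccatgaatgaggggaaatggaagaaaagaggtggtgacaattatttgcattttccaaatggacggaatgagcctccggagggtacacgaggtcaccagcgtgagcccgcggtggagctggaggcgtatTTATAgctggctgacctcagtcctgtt
BMPR2, chr2:202376077-202376326, plus strand: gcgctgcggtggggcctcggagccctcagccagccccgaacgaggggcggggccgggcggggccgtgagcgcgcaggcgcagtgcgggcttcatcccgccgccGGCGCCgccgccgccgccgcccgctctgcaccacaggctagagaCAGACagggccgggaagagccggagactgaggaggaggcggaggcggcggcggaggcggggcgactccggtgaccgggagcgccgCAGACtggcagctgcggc

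The motifs were GGCGCC, a GC-rich element known to bind SMAD1 complexes, GTCTG, the core of the general SMAD-binding element, and TATAA, the core of the TATA box, each searched on both strands. TATAA overlaps its reverse complement in the capital run of ID1. Of 35114 RefSeq windows of this length, 16.4% held GGCGCC, 38% held GTCTG and 18.9% held TATAA. The ID1, ID3 and ID4 windows each held TATAA about the same distance from the start, with the as-written match beginning 31 bases before it in ID1 and 29 bases before it in ID3 and ID4. The position was not particular to them, since 1 of the SMAD1 windows held TATAA 31 bases before its start and 1 of the BMP4 windows held its reverse complement at 28 bases. The ID3 window held 1 GTCTG match, 147 bases before the start, and the ID1 window held no match to either SMAD motif. The BMPR2 window held 1 GGCGCC and 2 GTCTG matches and no TATAA. In BMPR1A the one match was TATAA in reverse complement, 27 bases before the start. That window ends at 86755762, upstream of the GENCODE start of BMPR1A at 86756596, so it lies before a different start. These are matches of letters in a short window. RefSeq windows were found for 8 of the 10 genes, and BMP2 and BMP7 were not among them. The window of ID2 held none of the 3 motifs.

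The receptors are described first. BMPR1A is a type I receptor kinase that binds BMP2 and BMP4. It measured 330 RPM in Pre RNA only, 313 in Pre RNA+DNA and 184 in Post RNA only, while Post RNA+DNA had 307, from 1171 to 3101 counts. BMPR2, the type II receptor that activates it, measured 187, 185, 105 and 164 RPM in the same order. For either gene Post RNA only was the lowest. For BMPR2, Post RNA+DNA also lay below both Pre libraries without overlap. Its 95% counting interval was 156 to 172 RPM, against 179 to 196 in Pre RNA only and 176 to 194 in Pre RNA+DNA. The 95% counting interval of Post RNA only was 173 to 195 RPM for BMPR1A and 96.9 to 113 RPM for BMPR2, below the intervals of the other 3 libraries. Such intervals cover counting error only.

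SMAD1, which carries the signal from these receptors, measured 41.4 RPM in Pre RNA only, 44.6 in Pre RNA+DNA and 31.1 in Post RNA only, while Post RNA+DNA had 37.3. The interval of Post RNA only, 26.9 to 35.7 RPM, overlapped that of Post RNA+DNA, 33.6 to 41.2 RPM, and lay under those of both Pre libraries.

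Of the 4 ID genes, whose proteins hold back E proteins, ID3 had the most counts. ID3 measured 15.7 RPM (147 counts) in Pre RNA only, 21.3 (191) in Pre RNA+DNA and 22.3 (142) in Post RNA only, while Post RNA+DNA had 18.4 (186). Unlike the receptors, ID3 was not lowest in Post RNA only, and the interval of Post RNA only, 18.8 to 26.3 RPM, lay above that of Pre RNA only, 13.2 to 18.4 RPM, and overlapped the other 2. ID1 measured 3.09, 5.13, 3.61 and 2.87 RPM in the same order of libraries, and ID2 measured 4.9, 6.47, 3.77 and 3.57 RPM. For ID1 and ID2 Pre RNA+DNA was the highest library. ID4 had 8, 11, 4 and 8 counts, which is 0.628 to 1.23 RPM, with intervals that all overlapped.

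The ligands were low. BMP7, a ligand that signals through BMPR2 and several type I receptors, measured 10.3, 8.04, 8.95 and 10.8 RPM from 57 to 109 counts, and its 4 intervals overlapped. BMP2 had 9, 4, 8 and 5 counts, at most 1.26 RPM. BMP4, the ligand most used to differentiate pluripotent cells, had 4 counts in Pre RNA only and 1 in Post RNA only, while Post RNA+DNA had 2. No BMP4 count was recorded in Pre RNA+DNA, which allows a level of up to 0.335 RPM by a limit of 3 counts. At these depths no difference in BMP2, BMP4 or ID4 between libraries was detectable.

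**Figure D1:**
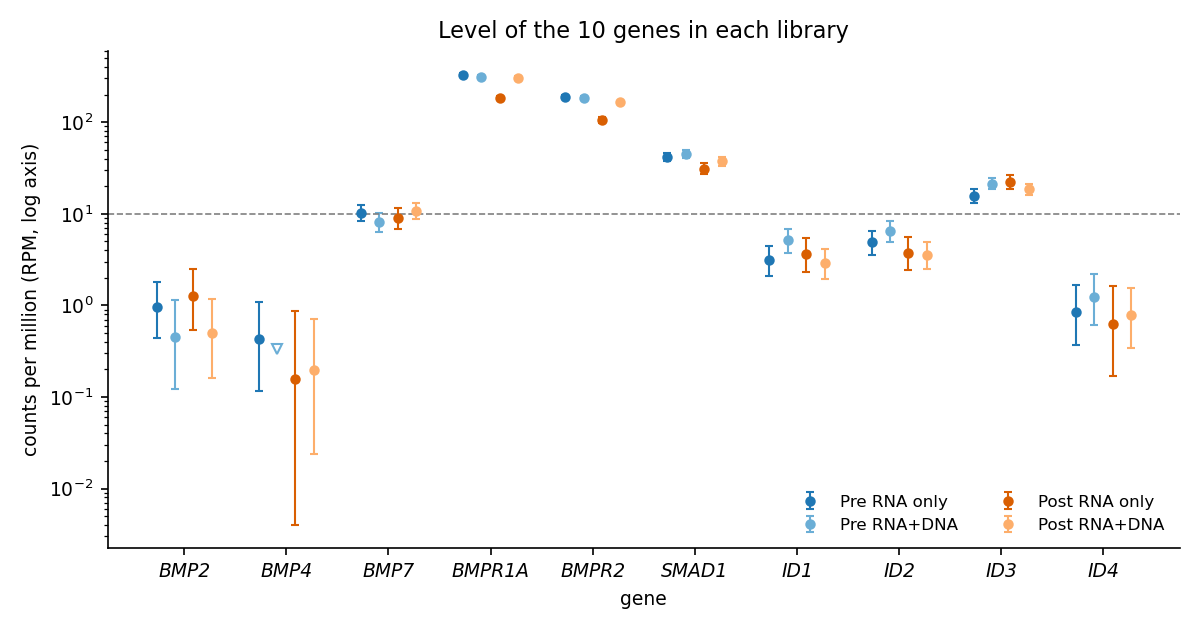
RPM (log axis) of each of the 10 genes in each of the 4 libraries. Bars are 95% exact Poisson intervals, the open triangle is the limit of 3 counts for the library with a count of 0, and the dashed line marks 10 RPM, which BMPR1A, BMPR2, SMAD1 and ID3 passed as a mean of the 4 libraries. BMPR1A and BMPR2 were lowest in Post RNA only, and ID3 was lowest in Pre RNA only.

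Levels of different genes were compared per kb of canonical transcript. On this scale the mean levels over the 4 libraries ran from BMPR1A (44.2 RPM per kb) through ID3 (20.5), BMPR2 (13.3), SMAD1 (12.9), ID1 (3.74), ID2 (3.6), BMP7 (2.37), ID4 (0.226) and BMP2 (0.223) to BMP4 (0.101). ID3, with a mean of 19.4 RPM against 160 for BMPR2, thus had the higher level per kb. BMPR2 and SMAD1 could not be ordered in any of the 4 libraries, and neither could ID1 and ID2, ID4 and BMP2, or BMP2 and BMP4, since their intervals overlapped in all 4. The intervals of BMPR1A and ID3 overlapped in 1 library, as did those of ID3 and BMPR2, and those of ID2 and BMP7 in 3. SMAD1 lay above ID1, and BMP7 above ID4, without overlap in all 4. The scale assumes that reads spread over the whole spliced transcript. Priming was by poly-T in nuclei, and how much of each count came from introns is not known from the files, so the order between short and long genes may depend on this scale.

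Only 4 of the 10 genes, BMPR1A, BMPR2, SMAD1 and ID3, passed the mean of 10 RPM that a call needed, and a gene was called where its ratio lay at least 1.5-fold from the all-gene median after 1 RPM was added to each value. The other 6 genes are given by their values alone.

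The first question was whether the order of RT and tagmentation changed these genes. In the RNA only pair, 1 of the 4 genes, ID3, was called higher in Post, against a background of 5.26% of all genes. None was called lower, against 2.01%. The relative log2 ratio of ID3 was 0.92, higher than 98.3% of the genes, and its relative fold was 1.95 (95% counting interval 1.54 to 2.47). The receptors lay on the other side of the median by less than the fold of a call. BMPR1A had a relative fold of 0.764 (0.714 to 0.818) and BMPR2 of 0.766 (0.699 to 0.837), close to each other. SMAD1 was at the median, with a relative fold of 1.03 (0.863 to 1.23). ID1 had a relative fold of 1.6 (0.884 to 2.86), ID2 of 1.05 (0.615 to 1.76) and BMP7 of 1.19 (0.84 to 1.66), and all 3 intervals held the median. The median relative log2 ratio over all 10 genes was 0.19, on the scale with 1 RPM added, which pulls the lowest genes toward 0.44 in this pair. It was -0.09, 0.02 and -0.28 in the other 3 comparisons, taken in the order of this text. Over the 4 genes that passed 10 RPM it was -0.18, -0.09, 0.02 and 0.07, so the sign of the median depends on which genes are counted.

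In the RNA+DNA pair, none of the 4 genes was called, against backgrounds of 1.10% higher and 2.02% lower. ID3 had a relative fold of 0.924 (0.751 to 1.14), BMPR1A of 1.05 (0.996 to 1.1), BMPR2 of 0.946 (0.883 to 1.01) and SMAD1 of 0.892 (0.773 to 1.03). All 4 intervals held the median. Among the lower genes, ID1 had a relative fold of 0.599 (0.363 to 0.973) and ID2 of 0.589 (0.378 to 0.908), below the median beyond counting error, while BMP7 was above it at 1.44 (1.06 to 1.96). This pair does not use the Post RNA only library. The difference between the 2 pairs, RNA only minus RNA+DNA in log2 relative fold, was 1.08 for ID3 (95% counting interval 0.63 to 1.52), -0.46 for BMPR1A (-0.58 to -0.33), -0.31 for BMPR2 (-0.47 to -0.14) and 0.21 for SMAD1 (-0.11 to 0.53). It was 1.42 for ID1 (0.38 to 2.45) and 0.84 for ID2 (-0.09 to 1.77). Those for ID1, ID3 and the receptors excluded 0, while the spread between replicate libraries is not known. None of the 4 genes that passed 10 RPM was called the same way in both order pairs, against 0.571% of all genes higher and 0.0605% lower.

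The second question was whether profiling the histone marks changed these genes. In the Pre libraries none of the 4 was called, against backgrounds of 0.0605% higher and 0.156% lower. The 4 ID genes had relative folds of 1.34 (1.07 to 1.67) for ID3, 1.63 (1 to 2.69) for ID1, 1.3 (0.865 to 1.95) for ID2 and 1.41 (0.518 to 4.05) for ID4. That for ID3 was higher than 99.2% of all genes, and the SD of the relative log2 ratio over genes was 0.15 in this pair, against 0.36 in the RNA only pair. The ranking takes genes of every level together, and ID3 rests on 147 and 191 counts here. By mean RPM it ranked 8378 among all genes, so most of the 11564 genes had more counts to rest on. The rank of 98.3% in the RNA only pair has the same limit. BMPR1A was at 0.934 (0.887 to 0.983), BMPR2 at 0.968 (0.905 to 1.04) and SMAD1 at 1.06 (0.919 to 1.22). The ligand BMP7 was at 0.763 (0.555 to 1.05).

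In the Post libraries ID3 was called lower in RNA+DNA than in RNA only, against a background of 7.63%, and no gene was called higher, against 1.34%. The relative fold of ID3 was 0.631 (0.504 to 0.79) and its relative log2 ratio was -0.64. BMPR1A was at 1.27 (1.19 to 1.36) and BMPR2 at 1.19 (1.09 to 1.31), above the median by less than the fold of a call. SMAD1 was at 0.914 (0.768 to 1.09), ID1 at 0.607 (0.339 to 1.1) and ID2 at 0.722 (0.419 to 1.27). This comparison and Post over Pre with RNA only share the Post RNA only library, so their values are not independent of each other. With library totals alone and no centring on the median, ID3 was called in neither comparison. BMPR1A and BMPR2 were then called lower in Post with RNA only, at log2 ratios of -0.84 and -0.83. Without centring, the all-gene median of -0.44 is part of each ratio in that pair. The lower quartile of all genes was at -0.19 relative to that median. The share of all genes called without centring is not given here, so these calls have no background.

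**Figure D2:**
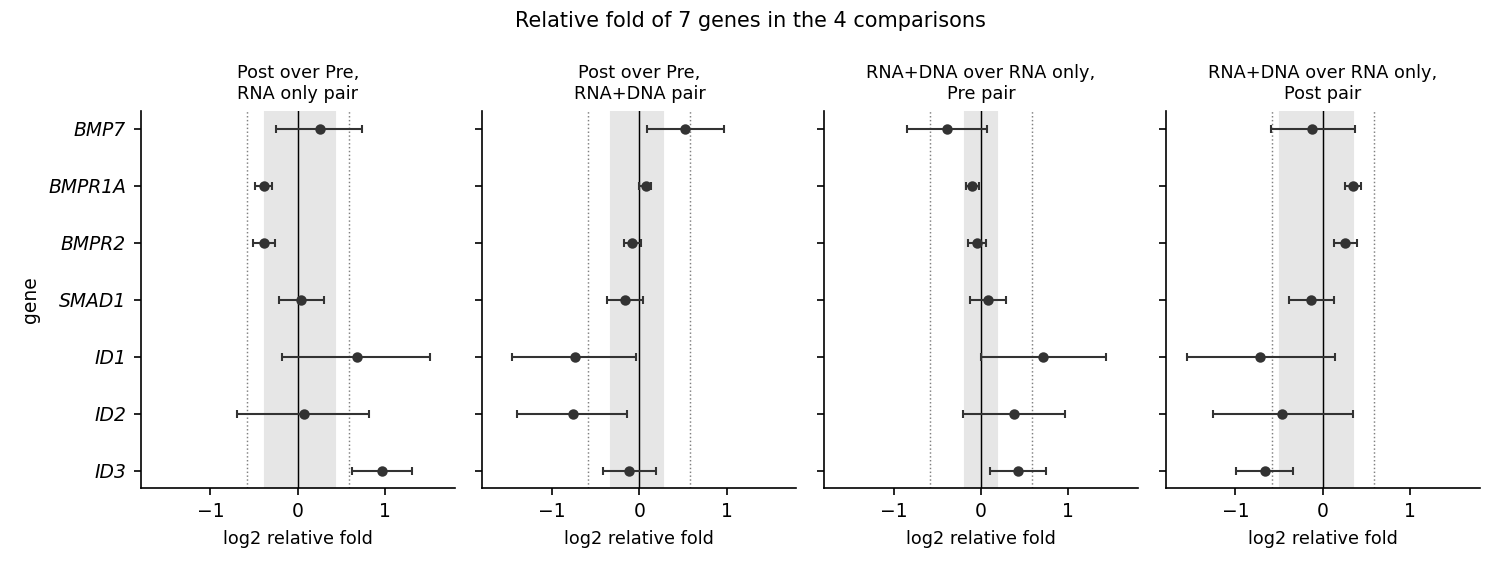
Relative fold (log2) of 7 of the 10 genes in the 4 comparisons, with 95% exact counting intervals. BMP2, BMP4 and ID4 had too few counts to plot. The solid line is the all-gene median, dotted lines mark 1.5-fold and the grey band holds the central 80% of relative log2 ratios of the 11564 genes. ID3 lies above the median in the first panel and below it in the last, the 2 panels that use the Post RNA only library, and BMPR1A and BMPR2 lie on the opposite side in both.

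Summed, the 4 ID genes had 230 counts in Pre RNA only, 306 in Pre RNA+DNA and 193 in Post RNA only, while Post RNA+DNA had 259. As levels these were 24.5 RPM (21.5 to 27.9), 34.1 (30.4 to 38.2), 30.3 (26.2 to 34.9) and 25.7 (22.6 to 29), so the interval of Post RNA only overlapped those of the other 3 libraries. The 2 receptors summed to 517, 498, 289 and 471 RPM. The relative fold of the sum for Post over Pre was 1.69 (1.39 to 2.06) with RNA only and 0.804 (0.678 to 0.951) with RNA+DNA. For RNA+DNA over RNA only it was 1.37 (1.15 to 1.63) in the Pre libraries and 0.646 (0.534 to 0.783) in the Post libraries. Without ID3 the same 4 folds were 1.24 (0.857 to 1.78), 0.603 (0.443 to 0.815), 1.42 (1.06 to 1.91) and 0.689 (0.475 to 1.01), so the first and the last then held the median. The sum of the 2 receptors was at 0.765 (0.725 to 0.807), 1.01 (0.97 to 1.05), 0.946 (0.909 to 0.986) and 1.24 (1.18 to 1.31) in the same order.

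Shares within the 10 genes do not depend on library totals or on centring. The ID genes took 4.12% of the counts of the 10 genes in Pre RNA only (95% Wilson interval 3.63 to 4.68), 5.83% in Pre RNA+DNA (5.23 to 6.5) and 8.41% in Post RNA only (7.34 to 9.62), while Post RNA+DNA had 4.71% (4.18 to 5.3). The share of Post RNA only was the highest without overlap, in the library where the summed receptors were lowest, and Pre RNA+DNA stood above Pre RNA only without overlap. With ID3 left out, which was chosen after seeing the data, Post RNA only (2.37%) and Pre RNA+DNA (2.27%) lay close together, above Pre RNA only (1.53%) and Post RNA+DNA (1.37%). The 2 receptors made up 80.1% of the counts in Post RNA only and 85.1 to 86.9% in the other 3 libraries. Set against SMAD1 alone, the ID genes were 37.2% of the joint count in Pre RNA only (33.5 to 41.1), 43.3% in Pre RNA+DNA (39.7 to 47) and 49.4% in Post RNA only (44.4 to 54.3), while Post RNA+DNA had 40.8% (37 to 44.7). Here the interval of Post RNA only was apart from that of Pre RNA only and overlapped those of both RNA+DNA libraries.

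Within the ID family most counts fell on ID3 in every library. ID3 was 63.9% of the ID counts in Pre RNA only (57.5 to 69.8), 62.4% in Pre RNA+DNA (56.9 to 67.7) and 73.6% in Post RNA only (66.9 to 79.3), while Post RNA+DNA had 71.8% (66 to 76.9). Both Post libraries were above both Pre libraries in this share, with intervals that overlapped within each order pair. ID2 was 20 and 19% of the ID counts in the Pre libraries and 12.4 and 13.9% in the Post libraries, again with overlapping intervals. ID1 was 11.2 to 15% and ID4 2.07 to 3.59% in the 4 libraries.

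**Figure D3:**
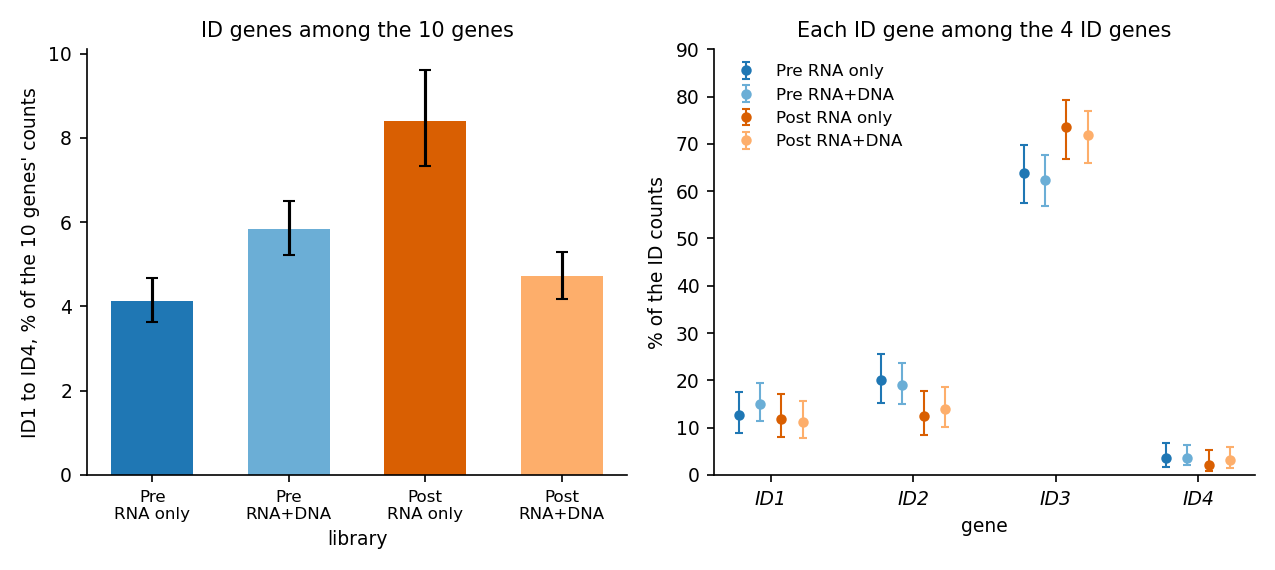
Left, the share of the counts of the 10 genes that fell on ID1 to ID4 in each library. Right, the share of each ID gene among the counts of the 4 ID genes. Bars and points are percentages and error bars are 95% Wilson intervals. The left panel is highest in Post RNA only at 8.41%, and in the right panel ID3 makes up 62.4 to 73.6% in all 4 libraries.

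The proportions among the receptors varied by a few percentage points. BMPR1A was 62.9 to 65.3% of the joint count of BMPR1A and BMPR2, with 63.7% in both RNA only libraries. Among the type I receptors BMPR1A, BMPR1B, ACVR1 and ACVRL1, BMPR1A was 82.4% in Pre RNA only (81.1 to 83.5), 81.6% in Pre RNA+DNA and 79.4% in Post RNA only (77.3 to 81.4), while Post RNA+DNA had 79.4% (78.1 to 80.6). Among the type II receptors BMPR2, ACVR2A and ACVR2B, BMPR2 was 55.3% in Pre RNA only (53.5 to 57), 52.5% in Pre RNA+DNA and 50.3% in Post RNA only (47.6 to 52.9), while Post RNA+DNA had 53.6%, and the first and the third of these did not overlap. SMAD1 was 30.7 to 33.9% of the joint count of SMAD1, SMAD5 and SMAD9, with overlapping intervals in all 4 libraries. BMP7 was 15.1 to 22% of the counts of the 9 BMP and GDF ligands summed (BMP2, BMP4 to BMP7, BMP8A, BMP8B, GDF5 and GDF7). These shares are of counts and are not corrected for length.

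Of 61 further genes of the pathway that had been listed by role, 59 were found in the files and 25 passed the mean of 10 RPM. In the RNA only pair 0 of the 25 were called higher and 1 was called lower, and in the RNA+DNA pair 0 were called in either direction. In the Pre libraries 0 were called, and in the Post libraries 1 was called higher and 1 lower in RNA+DNA. Over all genes, 5.26% were called higher and 2.01% lower for Post over Pre with RNA only, 1.10% and 2.02% with RNA+DNA, 0.0605% and 0.156% in the Pre libraries and 1.34% and 7.63% in the Post libraries, so these counts are near the background. The median relative log2 ratio of the 25 was -0.04, 0.06, -0.01 and 0.13 in these comparisons, where the median over all genes is 0 by construction. The lone call in the RNA only pair was SMAD6, an inhibitory SMAD that BMP signalling itself induces, at a relative log2 ratio of -0.71. It measured 15.1 RPM in Pre RNA only, 12.7 in Pre RNA+DNA and 6.28 in Post RNA only, while Post RNA+DNA had 13.8. In the Post libraries SMAD6 was the gene called higher, at 0.64, and FKBP1A, a protein that holds type I receptors inactive, was the one called lower, at -0.71. Both were named after their values were seen.

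By role, 1 of the 9 other ligands found in the files passed the mean of 10 RPM. That was BMP6, at 18.1 to 25.6 RPM, and the next by counts was BMP8A at 5.34 to 12.2 RPM. Of 9 other receptors and co-receptors 6 passed, led by ACVR2B at 63 to 104 RPM and ACVR2A at 40.7 to 63.1 RPM, and none was called in any comparison. SMAD4, the partner shared with other signals, measured 64.1 to 81.4 RPM and SMAD5 65.8 to 80.8 RPM. SMAD9 was the one other SMAD that did not pass. Among 8 inhibitors 7 passed, with SKIL at 147 to 162 RPM and SKI, its relative, at 71.4 to 123 RPM. The inhibitors had median relative log2 ratios of -0.31, 0.08, -0.1 and 0.32 in the 4 comparisons, in the order of this text. The 7 that passed include SMAD6 and FKBP1A. For the 6 other receptors and co-receptors that passed, the medians were -0.04, 0.04, 0.12 and 0.21. For the 2 other SMADs they were 0.17, -0.01, -0.03 and -0.22. The first and the last comparison share the Post RNA only library.

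Of 18 secreted or membrane antagonists 6 passed, and none was called. CRIM1, which binds BMPs at the cell surface, measured 107 to 174 RPM and FSTL1, a follistatin-like secreted protein, 83.2 to 93.2 RPM. All 3 E proteins, the partners of the ID proteins, passed. TCF4 measured 586, 597, 448 and 602 RPM and TCF12 measured 560, 544, 380 and 560 RPM, with relative log2 ratios between -0.12 and 0.18 in the 4 comparisons. Other genes that BMP turns on during differentiation were near 0. None of the 9 found in the files passed, and the highest were ATOH8 at 1 to 1.41 RPM and GATA3, a transcription factor of amnion and trophoblast, at 0.32 to 0.991 RPM.

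**Figure D4:**
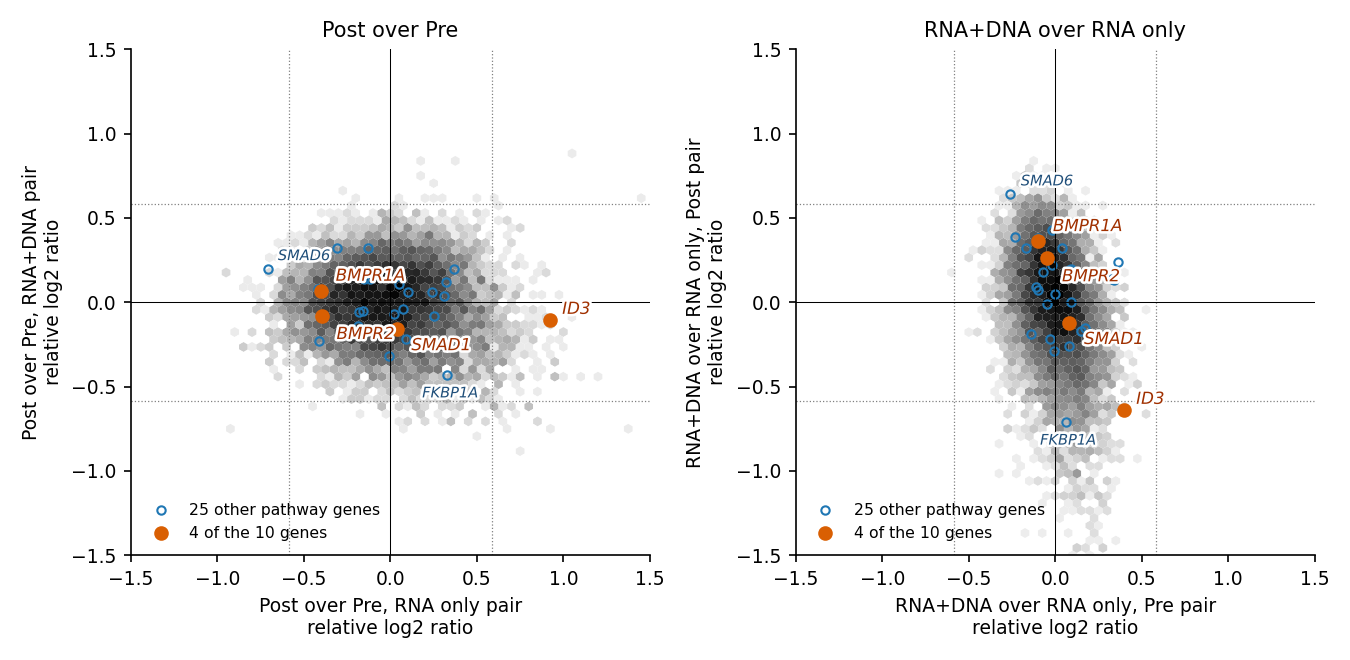
Relative log2 ratios of the 4 genes that passed 10 RPM (orange) and of 25 other pathway genes (blue circles) over the density of all 11564 genes (grey, log scale). Left, Post over Pre in the RNA only pair against the RNA+DNA pair, and right, RNA+DNA over RNA only in the Pre pair against the Post pair, with dotted lines at 1.5-fold. ID3 lies at 0.92 on one axis and -0.11 on the other in the left panel, and no pathway gene is past 1.5-fold on both axes.

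Gene span moved with these ratios over all genes, and its part in the results for ID3 and the receptors was not tested. Of the genes at 10 RPM or more, 10249 had a place in GENCODE. In Post over Pre with RNA only, the median relative log2 ratio was 0.38 for 915 genes under 10 kb, with quartiles of 0.15 and 0.63, against 0.92 for ID3. It was 0 for 6296 genes of 10 to 100 kb, with SMAD1 at 0.04, and -0.08 for 3038 genes of at least 100 kb, with quartiles of -0.25 and 0.09, against -0.4 for both receptors. In the Post libraries, RNA+DNA over RNA only, the 3 medians were -0.54, -0.05 and 0.15, against -0.64 for ID3, -0.12 for SMAD1, 0.36 for BMPR1A and 0.26 for BMPR2. In the Pre libraries they were 0.11, 0 and -0.03, against 0.4 for ID3 and -0.1 and -0.05 for the receptors.

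In the RNA+DNA pair, Post over Pre, the class medians ran the other way, at -0.27, -0.05 and 0.1, with ID3 at -0.11, BMPR1A at 0.07 and BMPR2 at -0.08. Spearman's rho between span and the relative log2 ratio over the 10249 genes was -0.31 for Post over Pre with RNA only, 0.49 for the RNA+DNA pair, -0.23 in the Pre libraries and 0.53 in the Post libraries. Over the 29 genes of the pathway that passed 10 RPM, the 4 members among them, it was -0.34, 0.45, -0.26 and 0.48. Genes in these correlations share libraries and depth and are not independent.

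**Figure D5:**
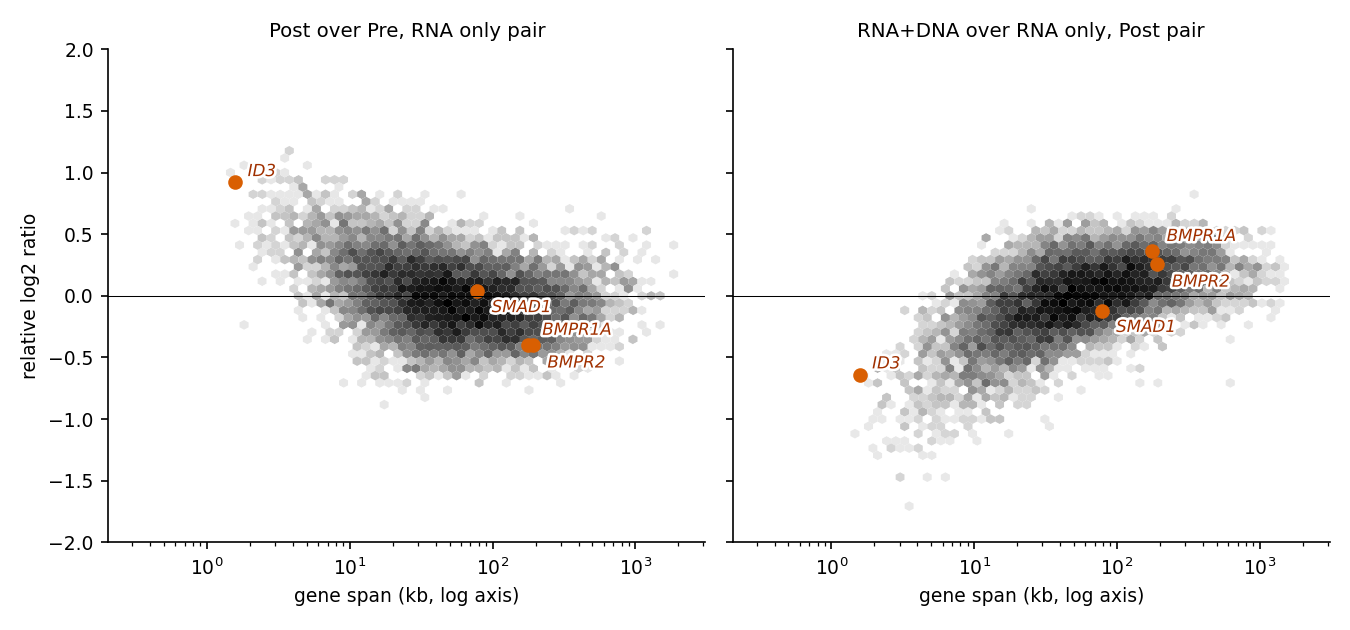
Relative log2 ratio against gene span (kb, log axis) for 10249 genes (grey density, log scale), with the 4 genes of the pathway list that passed 10 RPM in orange. Left, Post over Pre in the RNA only pair, and right, RNA+DNA over RNA only in the Post pair. ID3, at 1.58 kb, lies at 0.92 and -0.64, while the 2 receptors, at 176 and 191 kb, both lie at -0.4 on the left and at 0.36 and 0.26 on the right.

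Genes that overlap the members may share reads with them, because the strand used in counting is not given in the sources used here. The antisense genes SMAD1-AS1 and SMAD1-AS2 had 9 to 30 and 3 to 22 counts per library against 198 to 400 for SMAD1, and ID2-AS1 had 2 to 4 counts against 24 to 58 for ID2. Other overlapping genes had no counts under their GENCODE names, so their reads could not be set beside those of the members. They include RPAP2P1 and RNU1-19P for BMPR1A and BMP7-AS1 for BMP7. For BMPR2 they are H3P8, RPL13AP12 and an unnamed protein-coding gene, the last of these and RPL13AP12 on the same strand. BMPR1A has the processed pseudogenes BMPR1AP1 and BMPR1AP2, and ID2 has ID2B, so their counts are uncertain to the extent that such reads were assigned to them.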

How the data were processed

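RNA of H9 nuclei was measured in 4 libraries, 1 per condition. Per the labels and the study's methods, the authors aligned reads to GRCh38, removed duplicates and deposited counts per gene symbol as whole numbers with no normalization. The submitters' processing notes name STAR 2.7.11b, SAMtools, Trim Galore 0.6.10 and 2 versions of Bowtie, 1.3.1 and Bowtie2 2.5.3. The annotation and strand setting of the counting are not given in the sources used here. Another 60 columns of barcodes, for which the labels name no condition, were left out.

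Counts were divided by library totals (6368721 to 10089552) to give RPM, the counts per 1000000. Ratios were taken as log2 after adding 1 RPM and centred on the median of the 11564 genes whose mean reached 10 RPM. A gene was called at 1.5-fold. Relative folds printed with intervals had nothing added. Intervals are 95%, exact Poisson for RPM, exact conditional binomial for ratios, and Wilson for shares, and those of ratios take the median as fixed. They cover counting error only. Python 3.11.15 with scipy 1.17.1 was used. Tested on simulated data with 200 genes changed 3-fold, the rule recovered 100 of 100 raised genes in each comparison and 88 to 96 of 100 lowered ones, and called 1 to 14 unchanged genes. The simulated pairs held counting error only, with no spread between libraries. These figures therefore do not give the error of the rule in the real libraries.

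Places came from GENCODE release 44 and promoter windows from RefSeq. The genes named are the 10 members, and from each further list of the pathway the 2 with the highest mean RPM and any called in 1 direction by both pairs of a factor. SMAD6 and FKBP1A were named after their values were seen. The members and lists were chosen with earlier results of these data known. Alternatives were other scalings (TMM from edgeR 4.0.16, size factors from DESeq2 1.42.0, totals without the 20 most abundant genes), filters, pseudocounts, a 2-fold call, thinning, protein-coding genes only, and an additive model of order and DNA profiling in edgeR and DESeq2.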

Additional observations from a re-analysis of the deposited data

Results flagged for a closer look

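ID3 and BMPR1A lay beyond counting error on opposite sides of the all-gene median in the 2 pairs that compare RNA+DNA with RNA only. Profiling the histone marks went with a higher relative fold of ID3 in the Pre libraries, at 1.34 (95% counting interval 1.07 to 1.67), and with a lower one in the Post libraries, at 0.631 (0.504 to 0.79). The difference of the 2 effects, Pre minus Post, was 1.08 on the log2 scale (0.64 to 1.53). BMPR1A did the reverse, at 0.934 (0.887 to 0.983) and 1.27 (1.19 to 1.36), with a difference of -0.45 (-0.57 to -0.33). The difference also excluded 0 for ID1, at 1.43 (0.39 to 2.46), and BMPR2, at -0.3 (-0.46 to -0.14), which did not lie beyond counting error on both sides. These are the same contrasts of the 4 libraries as the differences between the order pairs given above, and add no separate evidence. With 1 library per condition, none of these differences was tested against the spread between replicates. Medians of whole span classes changed side too. For genes under 10 kb, as ID3 is, the median relative log2 ratio was 0.11 in the Pre and -0.54 in the Post libraries. For genes of at least 100 kb, as BMPR1A is, it was -0.03 and 0.15. The Post RNA only library, which stood apart over all genes, enters the Post pair alone. The part of span in these results was not tested.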

How the results depend on the processing

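ID3 stayed the one gene of the 10 called in Post over Pre with RNA only and in RNA+DNA over RNA only in the Post libraries under TMM, size factors, totals without the 20 most abundant genes, pseudocount 0.1 RPM, thinning and protein-coding genes only. With no centring on the all-gene median, the first comparison had 0 genes higher and 2 lower. The Post libraries then had 2 higher and 0 lower. In either case these were BMPR1A and BMPR2 in place of ID3, whose log2 ratios were then 0.48 and -0.26. Such ratios include the all-gene medians of -0.44 and 0.38. The share of all genes called is given here for the main setting alone, so counts under the other settings have no background. At a 2-fold call, and at a mean of at least 50 RPM, which ID3 does not reach, both counts were 0, and with pseudocount 5 RPM the count in the Post libraries was 0 (ID3 at -0.55). At a mean of at least 1 RPM, ID1 joined ID3 as lower in the Post libraries, giving 2. ID1 and ID2 were then called lower in Post over Pre with RNA+DNA, giving 2. ID1 rested on 23 to 46 counts per library and ID2 on 24 to 58. The share of all genes called at that filter is not given here, so these calls cannot be set against a background. The additive model of the order of RT and DNA profiling, with 1 residual degree of freedom, called few genes for the order of RT, 2 higher and 0 lower of all genes in edgeR (127 lower at an unadjusted p under 0.05) and 26 and 0 in DESeq2 (18 lower at that p), so a count of 0 among 4 genes says little about them. It called 0 of the 4 genes in edgeR (ID3 at a log2 ratio of 0.42, adjusted p = 0.9996) and in DESeq2 (adjusted p = 0.9999), with 0 of the 4 at an unadjusted p under 0.05 in either tool.

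The median over the 10 genes did not stay on one side of 0. With no centring, which adds the all-gene median back, it was -0.25 for Post over Pre with RNA only and 0.09 for the Post libraries, against 0.19 and -0.28, and over the 4 genes that passed 10 RPM, an alternative chosen after seeing the data, it was -0.18 and 0.07. Thinning put that of the Pre libraries at -0.06 against 0.02. The share of the ID genes changes with the base by construction. Without BMPR1A it was 9.25% in Pre RNA only, 12.6% in Pre RNA+DNA and 17.2% in Post RNA only, while Post RNA+DNA had 10.8%, in the same order as with it. Leaving out single ID genes, also chosen after seeing the data, gave 3.62% without ID1, 3.33% without ID2 and 1.53% without ID3 in Pre RNA only. In Pre RNA+DNA these were 5%, 4.78% and 2.27%. Without ID3 the share was 2.37% in Post RNA only, while Post RNA+DNA had 1.37%, where it was 4.08% without ID2. So without ID3 Post RNA only lay close to Pre RNA+DNA. Of 160 such recomputed counts, medians and shares, 136 kept their value and 24 did not. Keeping meant counts within 1.5 times, shares within their interval and medians within the counting interval of their middle genes. That interval was plus or minus 0.11 to 1.94, the widest in the comparisons with Post RNA only. There it was 1.6 and 1.94 around medians of 0.19 and -0.28, so medians that changed sign still counted as kept. The 136 therefore says little about the medians in these comparisons. Of 160 recomputed ratios of single genes 150 kept their value and 10 did not, none of which changed the sign of a called value. No paired analysis was possible because the conditions share only replicate number 1, and leaving out a replicate needs more than 1. The additive model takes DNA profiling as a block of conditions, not of replicates. Depth limits BMP2, BMP4 and ID4, with 7 to 31 counts over the 4 libraries.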
